A study of Homo sapiens with 12 samples.

Results

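The genes examined here encode the proteins that write, read and erase N6-methyladenosine (m6A), a group defined by gene name and known function: METTL3, METTL14, WTAP and VIRMA as writers, YTHDF1, YTHDF2, YTHDF3 and YTHDC1 as readers, and FTO and ALKBH5 as erasers. The choice was made with earlier results of these data known. All 10 were found among the 59385 gene names of the count table, and all 10 were among the 18166 genes tested. The libraries came from HEK293T, a transformed human embryonic kidney cell line, in the form of 2 stable single-clone lines, both treated with doxycycline (Dox) for 36 h to induce an shRNA. One line (shPRRC2B) expressed an shRNA against PRRC2B, an RNA-binding protein with a proposed role in translation initiation, and the other (shCtrl) a non-targeting shRNA. Poly(A)-selected RNA was sequenced from total lysate and from the pooled heavy fractions 6 to 10 of a sucrose gradient (polysome RNA), giving 4 groups of 3 libraries. Each line was 1 clone, so the effect of the shRNA and a difference between clones cannot be told apart, and in bulk RNA fewer cells with a transcript and fewer transcripts per cell cannot be told apart either.

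m6A is the most abundant internal modification of mRNA. METTL3 and METTL14 form the heterodimer that places it, with METTL3 as the catalytic subunit, and WTAP and VIRMA belong to the larger complex that holds this heterodimer and guides it to its sites. The YTH proteins bind the methylated base: YTHDF1, YTHDF2 and YTHDF3 act in the cytoplasm and are tied to mRNA decay and translation, whereas YTHDC1 acts in the nucleus. FTO and ALKBH5 remove the methyl group by oxidation.

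Since polysome RNA was compared with total RNA, the surroundings of the start codons are shown for 8 members, from the GENCODE 44 canonical transcripts on GRCh38. Each run is on the transcript strand, 5′ to 3′, from 6 bases before the start codon, which is in capitals. VIRMA and YTHDF3 are not shown.
METTL3: actaggATGtcggacacgtggagctct
METTL14: tggaacATGgatagccgcttgcaggag
WTAP: ttcaagATGaccaacgaagaacctctt
YTHDF1: tgaagcATGtcggccaccagcgtggac
YTHDF2: agagccATGtcggccagcagcctcttg
YTHDC1: ggagccATGgcggctgacagtcgggag
FTO: ggcagcATGaagcgcaccccgactgcc
ALKBH5: ggggccATGgcggccgccagcggctac

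A purine stood 3 bases before the start codon, as in the Kozak consensus, in 8 of these 8 transcripts, against 86.8% of the 13519 tested coding transcripts with such a window. A G directly after the start codon was found in 3 of the 8 (METTL14, YTHDC1 and ALKBH5), against 53.1% of all. The letters GGACT, the commonest form of the m6A consensus, were searched on the sense strand of the canonical transcripts and occurred in all 10 members, from 1 match in YTHDF1 to 10 in VIRMA, while 91.4% of all tested coding transcripts held at least 1. Per kb of transcript, the density was highest for METTL3 (2.02), WTAP (1.90) and VIRMA (1.54) and lowest for YTHDF1 (0.313), YTHDF3 (0.393) and FTO (0.432), around a median of 0.929 over all tested coding transcripts. Such a match is a string of letters and does not show that the adenosine is methylated.

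Library totals lay between 9855734 and 20837542 counts. Levels are given as CPM, counts scaled to a common library size on library sizes scaled by TMM, so each value is relative to the other RNA of its library. PRRC2B itself measured 272, 313 and 258 CPM in the shCtrl total libraries and 97.9, 103 and 100.5 CPM in the shPRRC2B total libraries, a log2 change of -1.49 ± 0.17 (SE, n = 3 per group, edgeR adjusted p = 4.25e-06), so the targeted mRNA was lower in every shPRRC2B library. Of markers known for HEK293-derived cells, PAX2 was found at 2.55 to 12.7 CPM and NEFM at 7.61 to 309 CPM, and the lines differed in both: NEFM was lower in the shPRRC2B line in both fractions without overlap, and PAX2 was at 2.55 to 3.91 CPM in shCtrl against 5.25 to 6.71 CPM in shPRRC2B polysomes, with overlapping total RNA (9.05 to 11.4 against 10.7 to 12.7 CPM). Replicate 1 of the shCtrl polysomes stood apart from its group: its correlation (log2 CPM over genes) with replicates 2 and 3 was 0.963 and 0.959, against 0.982 between these, and it lay nearer to the shPRRC2B polysomes (0.918 to 0.928) than they did (0.884 to 0.914). Its part in the results was tested only by leaving it out.

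Translation efficiency (TE) is the ratio of polysome to total RNA, and its change is the shPRRC2B ratio over the shCtrl ratio. Calls required an adjusted p below 0.05 (edgeR, adjusted over all tested genes) together with a log2 change of more than 0.5 in either direction. TE fell for 4 of the 10 members (VIRMA, YTHDF2, YTHDF3 and FTO) and rose for 0. Over all genes, 27.1% were called, 16.4% as lower and 10.7% as higher. In total RNA, 3 members rose (VIRMA, YTHDF1 and YTHDF3) and 0 fell, against 29.0% of all genes called, 14.9% as higher and 14.1% as lower. In polysome RNA, 1 member rose (WTAP) and 3 fell (VIRMA, YTHDF2 and FTO), against 39.8% of all genes called, 18.4% as higher and 21.4% as lower. These shares were not tested against each other, and the 3 comparisons draw on the same libraries and are not independent of each other. For the 9 members other than YTHDC1, which had too few counts for a fold change, the median log2 change was -0.53 in TE (all genes -0.034), 0.30 in total RNA (0.039) and -0.24 in polysome RNA (-0.011). These medians take no account of transcript length, with which TE change ran, as given below. The median canonical length was 4146.5 nt for the 10 members and 3039.5 nt for the tested genes with a length. Without shCtrl polysome replicate 1 the same 4 members were called lower in TE, with log2 changes of -1.72 (VIRMA), -0.60 (YTHDF2), -1.22 (YTHDF3) and -2.02 (FTO).

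**Figure D1:**
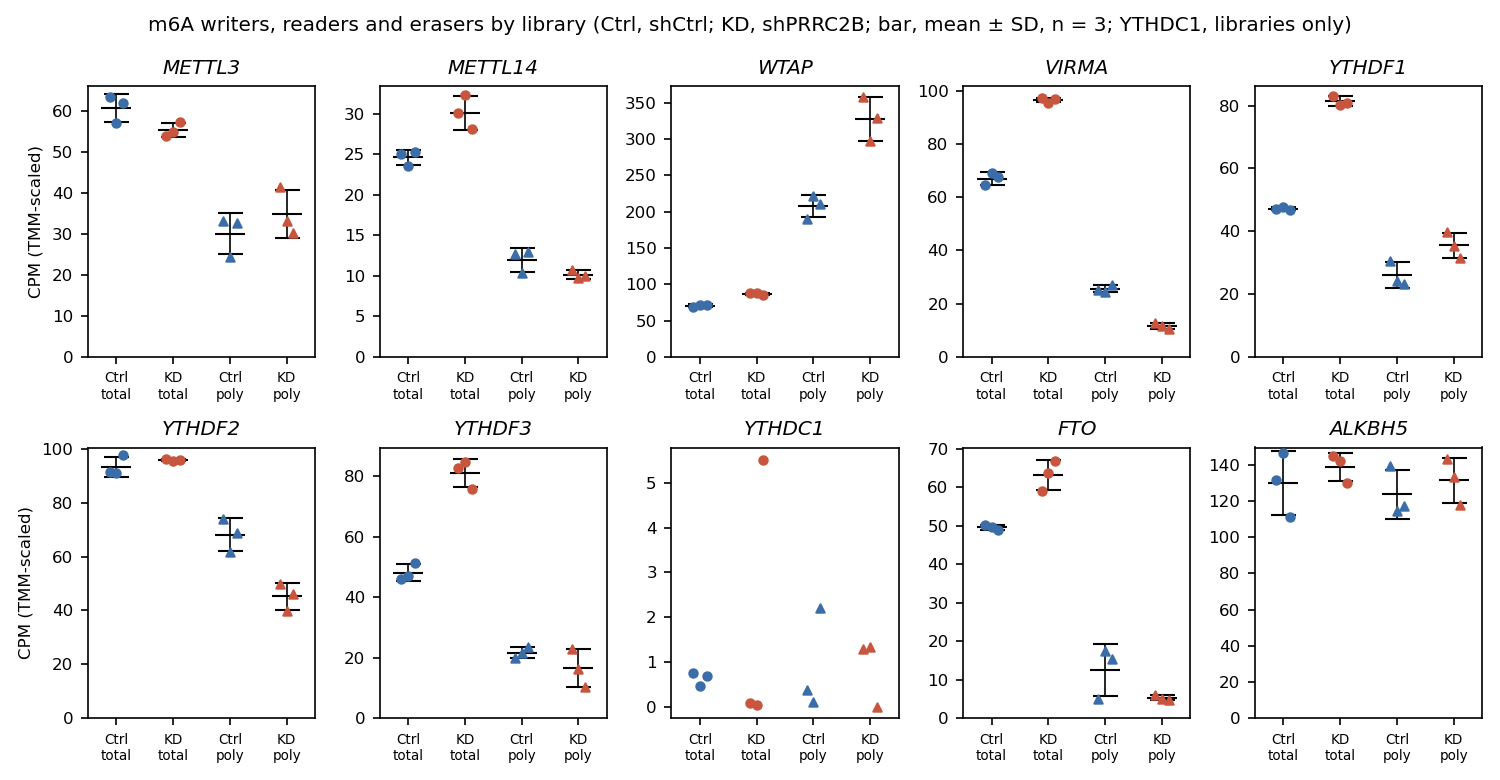
CPM (TMM-scaled, linear axis from 0) of each member in the 12 libraries; circles are total RNA, triangles polysome RNA, blue shCtrl (Ctrl) and red shPRRC2B (KD), and bars give the mean ± SD of 3 libraries except for YTHDC1, where only the libraries are drawn. VIRMA was higher in shPRRC2B total RNA (95.5 to 97.1 against 64.6 to 69.0 CPM) and lower in shPRRC2B polysome RNA (10.4 to 12.8 against 24.5 to 27.2 CPM).

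METTL3, the catalytic writer (chr14:21498133-21511342, minus strand), measured 63.4, 57.0 and 62.0 CPM in shCtrl total RNA and 53.9, 54.9 and 57.4 CPM in shPRRC2B total RNA. In polysomes it measured 33.2, 24.3 and 32.7 CPM in shCtrl and 41.4, 33.1 and 30.3 CPM in shPRRC2B. The groups overlapped in both fractions. The log2 change was -0.13 ± 0.14 in total RNA, 0.21 ± 0.15 in polysome RNA and 0.35 ± 0.20 in TE (edgeR adjusted p = 0.491, 0.257 and 0.222), none of them called. In a fit of the total libraries alone, the total RNA change was -0.18 (edgeR adjusted p = 0.0336), past the test but under the size threshold. Exons of TOX4 cover 17.4% of the METTL3 transcript in GENCODE 44, and the counting options gave no strand, so reads from that stretch were not assignable to METTL3 alone.

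METTL14, the partner that holds the RNA substrate (chr4:118685392-118715433, plus strand), was the lowest writer per kb of transcript in shCtrl total RNA. Its levels were 25.1, 23.6 and 25.3 CPM in shCtrl total RNA against 30.0, 32.3 and 28.1 CPM in shPRRC2B total RNA, 2 groups that did not overlap. In polysomes they were 12.7, 10.3 and 13.0 CPM against 10.7, 9.74 and 9.99 CPM, which overlapped. The log2 change was 0.29 ± 0.13 in total RNA (adjusted p = 0.104) and -0.24 ± 0.15 in polysome RNA (adjusted p = 0.215). With the total libraries fitted alone, the total RNA change was 0.25 (edgeR adjusted p = 0.0121), past the test but under the size threshold. The TE change of -0.53 ± 0.20 was past the size threshold but not past the test (edgeR adjusted p = 0.0616). That call turned on the tool and on single libraries: DESeq2 gave -0.56 with an adjusted p of 0.0265, and edgeR gave -0.68 (adjusted p = 0.0228) without shCtrl polysome replicate 2 and -0.64 (adjusted p = 0.0325) without shPRRC2B polysome replicate 1.

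Because METTL3 and METTL14 pair in 1 heterodimer, the ratio of their CPM per kb was also taken within each library, where the scaling of libraries cancels. In total RNA the ratio was 8.49, 8.11 and 8.22 in shCtrl and 6.02, 5.70 and 6.85 in shPRRC2B. In polysome RNA it was 8.76, 7.91 and 8.46 in shCtrl and 12.9, 11.4 and 10.2 in shPRRC2B. The ratio was thus lower in the shPRRC2B line in total RNA and higher in its polysomes, with no overlap between the groups in either fraction. The mean log2 ratio differed by -0.42 in total RNA and by 0.45 in polysomes, each with p = 0.1 in a two-sided exact permutation test, which is the smallest p that 3 against 3 libraries allow. A trend of counts on transcript length does not cancel in this ratio (METTL3 1980 nt, METTL14 6642 nt). The ratio was not taken again without that trend, while the edgeR TE changes of both genes were. These came to 0.21 for METTL3 and 0.055 for METTL14, against 0.35 and -0.53 in the main fit.

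WTAP, the adaptor that brings the heterodimer to nuclear speckles (chr6:159725585-159756319, plus strand), was the 1 member called higher in polysome than in total RNA, in both lines. Total RNA held 68.5, 71.0 and 71.8 CPM in shCtrl and 88.0, 87.3 and 85.6 CPM in shPRRC2B. Polysome RNA held 191, 221 and 211 CPM in shCtrl and 358, 297 and 329 CPM in shPRRC2B. All shPRRC2B libraries lay above all shCtrl libraries of the same fraction. WTAP rose in polysome RNA by a log2 change of 0.66 ± 0.11 (1.58-fold, edgeR adjusted p = 0.000161), which came to 0.49 (adjusted p = 0.00292), just short of the size threshold, without shPRRC2B polysome replicate 1. The total RNA change of 0.30 ± 0.11 passed the test but not the size threshold (adjusted p = 0.0465), and TE differed by 0.36 ± 0.16 (adjusted p = 0.110).

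VIRMA, the large scaffold of the writer complex tied to methylation near stop codons (chr8:94487689-94553529, minus strand), was the member with the largest TE change. It measured 64.6, 69.0 and 67.5 CPM in shCtrl total RNA and 97.1, 95.5 and 97.0 CPM in shPRRC2B total RNA. In polysomes the order was turned, with 25.2, 24.5 and 27.2 CPM in shCtrl and 12.8, 11.5 and 10.4 CPM in shPRRC2B. Neither fraction showed overlap between the lines. VIRMA fell in TE, with a log2 change of -1.67 ± 0.17 (to 0.313 of the shCtrl ratio, edgeR adjusted p = 1.11e-05), and in polysome RNA, with -1.15 ± 0.13 (adjusted p = 2.42e-06). It rose in total RNA by 0.53 ± 0.11 (1.44-fold, adjusted p = 0.00168). This last value lies at the size threshold: it was 0.48 without any 1 of the 6 polysome libraries, 0.50 and just under the threshold without shCtrl total replicate 1, and 0.37 (adjusted p = 0.0116) with the trend of counts on transcript length removed. It was also under the threshold with scaling by total counts (0.45), TMM within each fraction (0.48), no filter on low counts (0.49) and the total libraries alone (0.48).

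**Figure D2:**
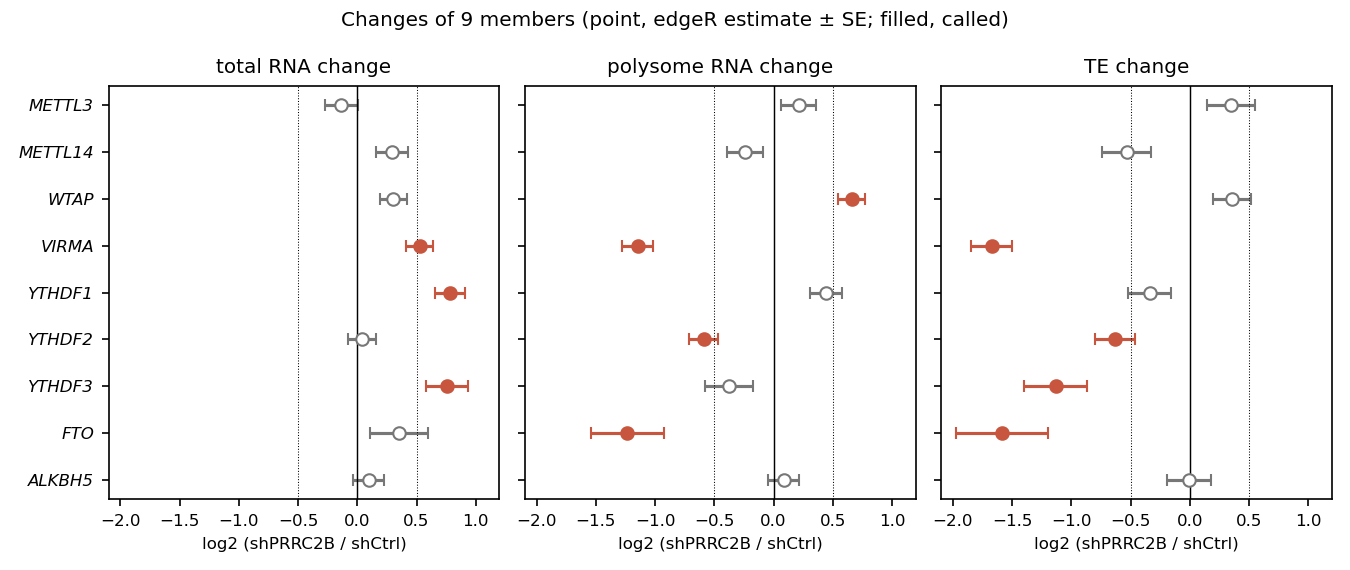
Log2 change, shPRRC2B over shCtrl, of 9 members in total RNA, polysome RNA and TE; points are edgeR estimates, bars ± SE, dotted lines the size threshold of 0.5, and filled points the called genes. TE points of VIRMA (-1.67), FTO (-1.58), YTHDF3 (-1.13) and YTHDF2 (-0.63) are filled on the left, and none is filled on the right.

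Among the readers, the 3 YTHDF genes are paralogs that bind m6A through a shared YTH domain. Their coding sequences were 65.7% to 68.9% identical in pairwise alignment, with no identical run longer than 20 bases, and they did not move alike. YTHDF1, a reader linked to translation (chr20:63195429-63216139, minus strand), had the largest rise in total RNA. It went from 47.1, 47.8 and 46.6 CPM in shCtrl to 83.1, 80.0 and 80.9 CPM in shPRRC2B, a log2 change of 0.79 ± 0.13 (1.72-fold, edgeR adjusted p = 0.000171). In polysomes it measured 30.6, 24.2 and 23.2 CPM against 39.6, 35.2 and 31.6 CPM, also without overlap, and that change of 0.45 ± 0.14 (adjusted p = 0.0126) stayed under the size threshold. Its TE differed by -0.34 ± 0.18 (adjusted p = 0.185).

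YTHDF2, the reader that recruits the deadenylation machinery (chr1:28736621-28769775, plus strand), differed between the lines in polysomes. Total RNA held 91.2, 90.9 and 97.6 CPM in shCtrl and 96.3, 95.4 and 95.8 CPM in shPRRC2B, which overlapped (log2 change 0.040 ± 0.12, adjusted p = 0.818). Polysome RNA held 73.8, 61.6 and 68.8 CPM in shCtrl and 49.7, 39.7 and 46.1 CPM in shPRRC2B, with every shPRRC2B library below every shCtrl library. YTHDF2 fell in polysome RNA (log2 change -0.59 ± 0.12, edgeR adjusted p = 0.000745) and in TE (-0.63 ± 0.17, to 0.646 of the shCtrl ratio, adjusted p = 0.0100). Exons of another gene cover 8.05% of its transcript.

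YTHDF3, a reader that acts together with its paralogs (chr8:63168553-63212786, plus strand), rose in total RNA and fell in TE. Total RNA held 45.9, 47.0 and 51.2 CPM in shCtrl and 82.8, 84.6 and 75.8 CPM in shPRRC2B, 2 groups far apart (log2 change 0.76 ± 0.18, adjusted p = 0.00367). Polysome RNA held 19.9, 21.5 and 23.5 CPM in shCtrl and 22.9, 16.4 and 10.5 CPM in shPRRC2B, so replicate 1 of the shPRRC2B polysomes lay inside the shCtrl range. The polysome change was -0.38 ± 0.20 (adjusted p = 0.134), or -0.79 (adjusted p = 0.00154) without that replicate. TE fell, with a log2 change of -1.13 ± 0.27 (to 0.456 of the shCtrl ratio, edgeR adjusted p = 0.00488).

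YTHDC1, the nuclear reader (chr4:68310387-68350090, minus strand), was barely counted. Raw counts were 20, 13 and 10 in shCtrl total RNA and 2, 1 and 126 in shPRRC2B total RNA. In polysomes they were 4, 1 and 20 in shCtrl and 15, 14 and 0 in shPRRC2B. A single library, shPRRC2B total replicate 3, held most of these counts, and replicates ran from 1 to 20 in shCtrl polysomes and from 0 to 15 in shPRRC2B polysomes, so no fold change is given. In GENCODE 44 no exon of another gene overlaps the canonical transcript, and the annotation that the authors counted with was an earlier release that was not used here.

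FTO, the first demethylase described (chr16:53701692-54158512, plus strand), has the longest transcript of the members, of 11573 nt with 10026 nt in the 3′ UTR. In total RNA it measured 50.2, 49.6 and 49.0 CPM in shCtrl and 59.0, 63.7 and 67.0 CPM in shPRRC2B, groups that did not overlap (log2 change 0.35 ± 0.24, adjusted p = 0.284). In polysomes it measured 4.96, 17.6 and 15.4 CPM in shCtrl and 6.02, 5.06 and 4.85 CPM in shPRRC2B. Replicate 1 of the shCtrl polysomes, the library that stood apart, fell within the shPRRC2B range, while the other shCtrl libraries lay above it. FTO fell in TE (log2 change -1.58 ± 0.39, edgeR adjusted p = 0.00638) and in polysome RNA (-1.23 ± 0.31, adjusted p = 0.00337), and without that replicate the values were -2.02 (adjusted p = 1.58e-06) and -1.72 (adjusted p = 1.48e-07). With the length trend removed, the TE change was -0.76 (adjusted p = 0.167) and no longer called. That step used the canonical length of 11573 nt, and the FTO isoforms of these cells were not measured.

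ALKBH5, the nuclear demethylase (chr17:18183078-18209954, plus strand), overlapped between the lines in both fractions. Its levels were 132, 147 and 111 CPM in shCtrl total RNA and 145, 142 and 130.0 CPM in shPRRC2B total RNA. Polysome RNA held 139, 114 and 117 CPM in shCtrl and 143, 133 and 118 CPM in shPRRC2B. The log2 change was 0.095 ± 0.13 in total RNA, 0.088 ± 0.13 in polysome RNA and -0.0078 ± 0.18 in TE (edgeR adjusted p = 0.601, 0.619 and 1.00), with exons of another gene over 11.3% of its transcript. Within libraries, the FTO to ALKBH5 ratio of CPM per kb was 0.104, 0.0923 and 0.120 in shCtrl and 0.111, 0.123 and 0.141 in shPRRC2B total RNA, which overlapped (exact permutation p = 0.2). In polysomes it was 0.0097, 0.042 and 0.0359 against 0.0115, 0.0104 and 0.0112, with replicate 1 of shCtrl again beside the shPRRC2B libraries (p = 0.4 in the exact permutation test).

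Levels of different genes were compared per kb of canonical transcript. The isoforms that these cells express were not measured, so the order between genes depends on the canonical lengths. In CPM, FTO (49.6) stood beside YTHDF3 (48.0) and YTHDF1 (47.2) in shCtrl total RNA. In shCtrl total RNA, ALKBH5 (41.1 ± 5.60 CPM per kb, SD, n = 3), YTHDF2 (34.0 ± 1.37) and WTAP (33.5 ± 0.82) led, and the ranges of neighbours in this order overlapped. METTL3 followed at 30.7 ± 1.69, then YTHDF1 at 14.7 ± 0.18, VIRMA at 10.3 ± 0.35 and YTHDF3 at 9.43 ± 0.55, the latter pair with overlapping ranges. FTO (4.29 ± 0.052) and METTL14 (3.71 ± 0.14) were lowest among the genes with enough counts. In shPRRC2B total RNA the order differed in that WTAP (41.3 ± 0.59) stood above YTHDF2 (34.9 ± 0.16) without overlap, and YTHDF3 (15.9 ± 0.92) above VIRMA (14.9 ± 0.14) with overlapping ranges. In polysomes WTAP led by a wide margin, with 98.6 ± 7.40 CPM per kb in shCtrl and 156 ± 14.5 in shPRRC2B, against 39.1 ± 4.32 and 41.6 ± 3.98 for ALKBH5, the next in order. FTO stood at the other end, at 1.09 ± 0.58 in shCtrl polysomes and 0.459 ± 0.054 in shPRRC2B polysomes.

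The comparison of polysome with total RNA within a line asks how much of each mRNA was found in the heavy fractions, relative to the other mRNAs. Ribosome loading and other differences between total and polysome libraries cannot be told apart in it. Correlations (log2 CPM over genes) between total and polysome libraries were 0.43 to 0.50 in shCtrl and 0.22 to 0.31 in shPRRC2B. Total libraries of different lines correlated at 0.91 to 0.92. In shCtrl cells 1 member was higher in polysomes (WTAP, log2 ratio 1.56 ± 0.12, edgeR adjusted p = 1.13e-09) and 6 were lower, against 72.3% of all genes called, 32.5% as higher and 39.8% as lower. The lower members were METTL3 (-1.01 ± 0.15), METTL14 (-1.04 ± 0.15), VIRMA (-1.39 ± 0.12), YTHDF1 (-0.86 ± 0.13), YTHDF3 (-1.15 ± 0.19) and FTO (-1.98 ± 0.27). Removal of the length trend moved the median over all 10 members from -0.93 to -0.023. Most of these lower calls were then lost, as the closing section gives. YTHDF2 had a log2 ratio of -0.45 ± 0.12, which passed the test (adjusted p = 0.00218) but not the size threshold, and which was called at -0.55 without shCtrl polysome replicate 1. ALKBH5 had a ratio near 0 (-0.072 ± 0.13, adjusted p = 0.626).

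In shPRRC2B cells WTAP was again higher (1.92 ± 0.12) and 7 members were lower, against 78.9% of all genes called, 36.6% as higher and 42.3% as lower. The lowest ratios were those of FTO (-3.57 ± 0.29), VIRMA (-3.06 ± 0.13) and YTHDF3 (-2.28 ± 0.19), followed by METTL14 (-1.57 ± 0.15), YTHDF1 (-1.20 ± 0.13), YTHDF2 (-1.08 ± 0.12) and METTL3 (-0.67 ± 0.14). ALKBH5 stayed at -0.080 ± 0.13. The lines share no library in these 2 comparisons, and their difference is the TE change given above. The zero of this scale depends on the scaling: with total counts in place of TMM, the median of all genes moved from -0.22 to -1.22 in shCtrl and from -0.22 to -1.16 in shPRRC2B, and ALKBH5 then lay at -1.07 and -1.02, so its position is stated relative to the other genes only.

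**Figure D3:**
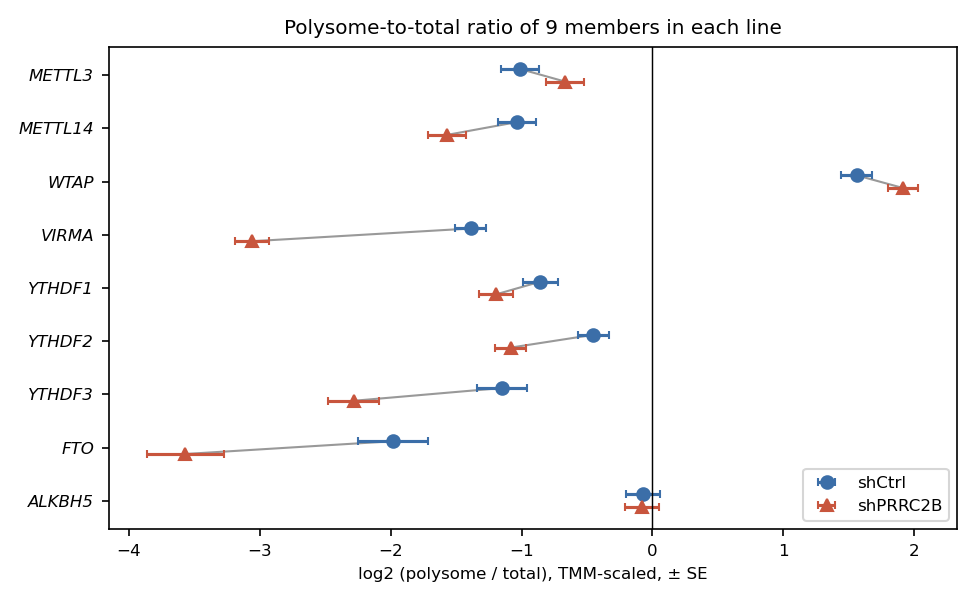
Log2 ratio of polysome to total RNA of 9 members in shCtrl (blue circles) and shPRRC2B (red triangles) cells, edgeR estimate ± SE, with a grey line joining the values of a gene. WTAP is the member to the right of 0, ALKBH5 lies at -0.072 and -0.080, and VIRMA moves from -1.39 to -3.06.

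Transcript length was set against these ratios, and other features of the transcripts were not. The canonical transcripts spanned 1980 nt (METTL3) to 11573 nt (FTO), and the 3 members with a TE change below -1 were FTO, VIRMA (6478 nt) and YTHDF3 (5095 nt). The members with a TE estimate above 0, METTL3 and WTAP (2105 nt), were the shortest. METTL14 (6642 nt) was longer than VIRMA, and its TE change of -0.53 was nearer to 0 than the -1.67 of VIRMA. Over the 9 members Spearman's rho of length with TE change was -0.77, against -0.41 over the 15762 tested genes with a length, and it was -0.77 and -0.87 for the polysome-to-total ratio in shCtrl and shPRRC2B (-0.56 and -0.61 over all genes). These are descriptions over points that share the same 12 libraries. After removal of the length trend within each library, VIRMA (-1.10, edgeR adjusted p = 0.000257), YTHDF2 (-0.61, adjusted p = 0.0160) and YTHDF3 (-0.71, adjusted p = 0.0429) were still called lower in TE, while FTO was not and METTL14 came to 0.055 (adjusted p = 0.887). Over all genes the same step turned 1935 higher and 2981 lower TE calls into 2012 and 1766.

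**Figure D4:**
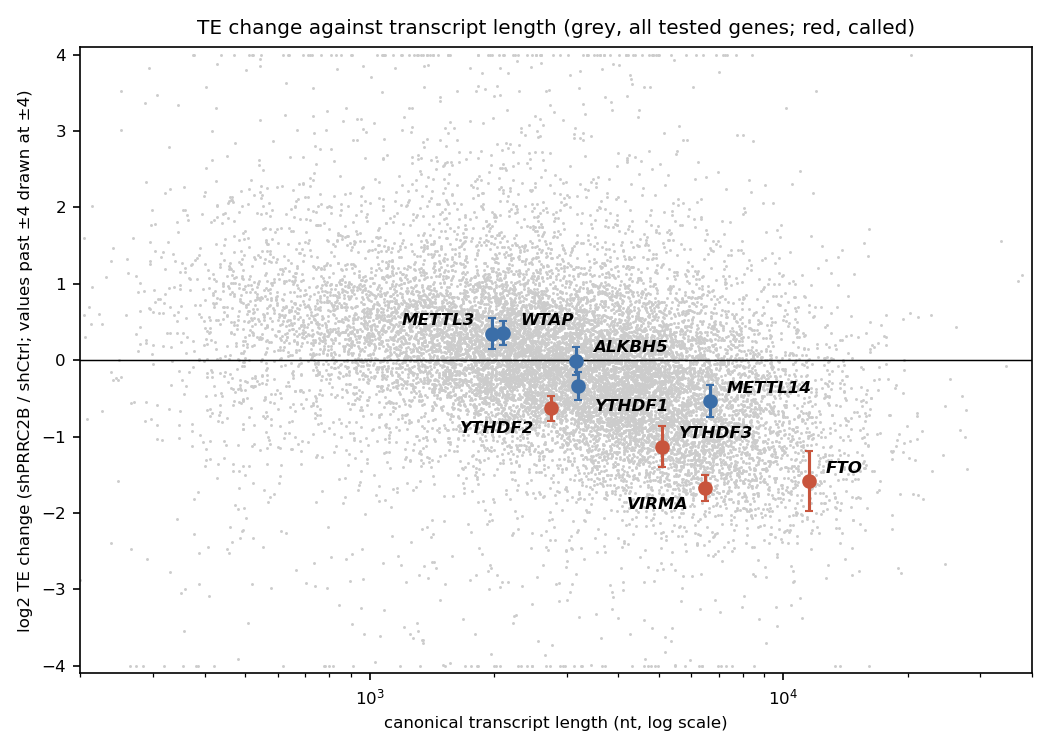
Log2 TE change (shPRRC2B over shCtrl) against canonical transcript length in nt (log axis) for the tested genes with a length (grey) and 9 members (red, called; blue, not called; bars ± SE). The members above 0 are METTL3 (1980 nt) and WTAP (2105 nt), and those below -1 are YTHDF3 (5095 nt), VIRMA (6478 nt) and FTO (11573 nt).

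A further list of 18 genes of m6A biology was counted as a list: the other subunits of the writer complex, other adenosine methyltransferases, the remaining YTH gene and proteins proposed to bind or follow the mark. This list, too, was chosen with earlier results of these data known. TE fell for 9 of the 18 and rose for 1 (against 16.4% and 10.7% of all genes), with a median log2 change of -0.55. Of the writer complex, ZC3H13, which anchors WTAP and VIRMA in the nucleus, fell in TE (log2 change -1.94 ± 0.20, edgeR adjusted p = 1.11e-05), with 114, 108 and 126 CPM in shCtrl and 102, 107 and 109 CPM in shPRRC2B total RNA, and 26.8, 20.9 and 21.9 CPM against 6.36, 5.06 and 5.14 CPM in polysomes. The polysome groups of ZC3H13 were far apart. CBLL1, also known as HAKAI, fell in TE (-1.48 ± 0.44, adjusted p = 0.0184), a call lost in 3 of the 12 fits that left out 1 library, and in polysomes its shCtrl replicate 1 (7.96 CPM, others 17.9 and 18.7) lay within the shPRRC2B range; without that library the TE change was -1.81. With the length trend removed the CBLL1 change was -1.20 and not called (edgeR adjusted p = 0.0518). The paralogs RBM15 and RBM15B, which bind RNA and recruit the complex, had TE changes of 0.40 ± 0.22 and -0.039 ± 0.16 (adjusted p = 0.191 and 0.901), and neither was called.

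Of the other enzymes, TRMT112, an activator of several methyltransferases, rose in TE by 0.73 ± 0.24 (edgeR adjusted p = 0.0296), a call lost in 9 of the 12 fits without 1 library and with the length trend removed (0.34, adjusted p = 0.257). METTL16, METTL5, ZCCHC4 and PCIF1 were not called in TE. YTHDC2, a helicase of the YTH family, fell in TE (-0.77 ± 0.26, adjusted p = 0.0367), and this call was lost in 7 of those 12 fits and with the length trend removed (-0.21, adjusted p = 0.588). Among the 8 proposed binders, 6 fell in TE: IGF2BP1 (-1.59 ± 0.25), IGF2BP2 (-1.31 ± 0.25), IGF2BP3 (-1.71 ± 0.37), RBMX (-0.84 ± 0.22), HNRNPC (-0.70 ± 0.16) and PRRC2A (-1.80 ± 0.33), the last a paralog of PRRC2B. HNRNPA2B1 and FMR1 were not called. Exons of other genes cover 35.6% of the IGF2BP3 transcript, 35.0% of that of TRMT112 and 20.0% of that of RBM15B, so their counts are less certain. The 6 calls among the binders and that of ZC3H13 held in all 12 fits without 1 library and with the length trend removed. In total RNA, 2 of the 18 rose (ZCCHC4 and IGF2BP1, with log2 changes of 0.50 and 0.52, just past the size threshold) and 0 fell, against 14.9% of all genes called higher and 14.1% lower. In polysome RNA 1 rose and 10 fell, against 18.4% and 21.4% of all genes.

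**Figure D5:**
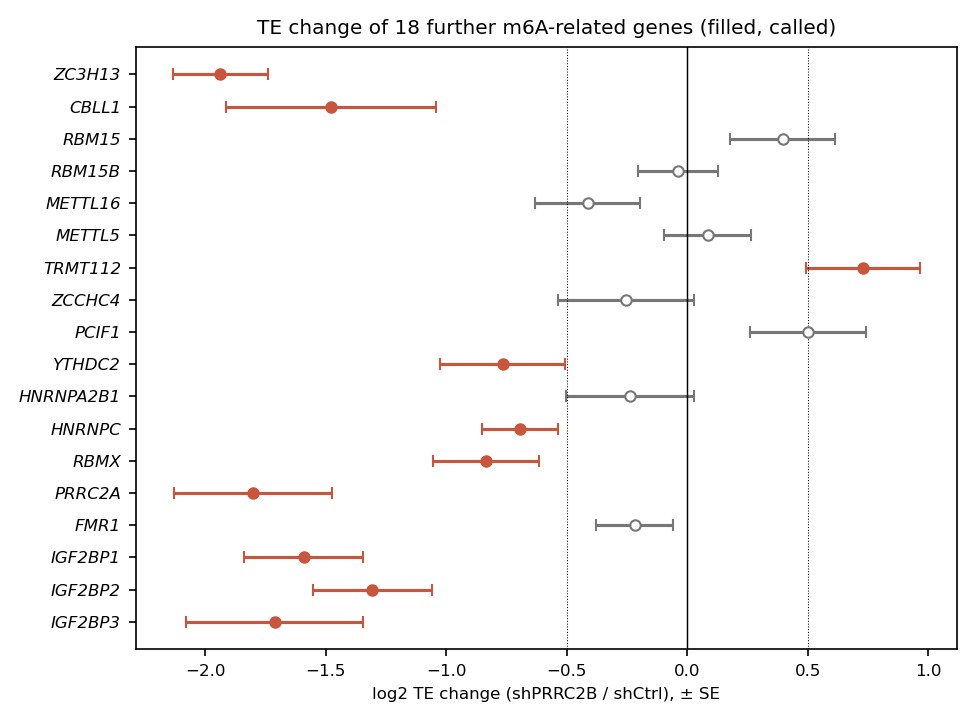
Log2 TE change (shPRRC2B over shCtrl, edgeR estimate ± SE) of the 18 further genes; filled points are called and dotted lines mark the size threshold of 0.5. ZC3H13 (-1.94) and PRRC2A (-1.80) lie farthest to the left and TRMT112 (0.73) farthest to the right.

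The genes whose log2 CPM ran most like a member over the 12 libraries were sought among the 10050 genes that averaged 10 CPM or more, as a description, since these points fall into 2 fractions and 2 lines. For METTL3 they were KLHL29 (Pearson's r = 0.991), OIP5-AS1 (0.986) and MAT2A (0.979). For YTHDF2 the nearest was GFM1 (0.991). ALKBH5 had no close follower, and its nearest genes were RARA (0.801), DOHH (0.768) and SPHK2 (0.749). Among the members, METTL14 ran with VIRMA (0.968) and YTHDF3 (0.959), and WTAP ran opposite to VIRMA (-0.952) and METTL14 (-0.942).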

How the data were processed

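Counts of read pairs per gene name for 12 libraries (total and polysome RNA of 2 lines, 3 replicates each) were deposited by the authors without normalization. According to the study's methods and the submitters' processing notes, reads were demultiplexed with bcl2fastq 2.19.0, trimmed with Trimmomatic 0.36, mapped to GRCh38 with HISAT2 (2.1.0 in the notes, while the methods give a different version) and counted with featureCounts of Subread 2.0.1 on GENCODE 38 gene names, without strand and without pairs that match several genes or places. The table also holds 5 unnamed empty columns, and 0 columns of values belong to no library. Replicates are separate samples by their labels. P-values rest on the spread between them, estimated for each gene over all 12 libraries together, so they measure neither fraction alone. Deviations from the group mean (SD over genes, log2) were larger in polysome libraries (0.215 to 0.340) than in total libraries (0.0866 to 0.131). Fitted alone, total RNA had 10519 of 17520 genes at an edgeR adjusted p below 0.05 (main fit 6264 of 18166). Polysome RNA alone had 5483 of 15268 (main fit 8143 of 18166). The depth is given with the results, and intervals cover the spread of the fitted model.

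Genes were filtered with filterByExpr (minimum count 10), scaled by TMM and tested in 1 fit per setting over all 12 libraries with edgeR 4.0.16 (glmQLFit, glmQLFTest, groups only, Benjamini-Hochberg over all genes tested, R 4.3.3, limma 3.58.1). The study used DESeq2, which was run as an alternative (1.42.0). SE is the log2 change over the square root of F. Correlations of same-numbered deviations lay between -0.06 and 0.05, so no pairing by replicate number was visible and the main fit used no block. Such values cannot show whether libraries of the same number came from the same culture. Lengths, positions and start codons come from canonical transcripts of GENCODE 44, which gave a length for 86.8% of tested genes. Alternatives were DESeq2, other scalings and filters, no size threshold, replicate blocks, single fractions, removal of a lowess trend on length (span 0.3) and omission of each library. The TE comparison of the main edgeR fit was tested on simulated data, and the other steps were not. The simulation gave total and polysome libraries of a gene the same spread. It therefore cannot show how the fit fares where polysome libraries vary more, as they did here. The members and gene lists were chosen with earlier results of these data known. The named genes are the members, PRRC2B, the members of the list of 18 that were called in TE, belong to the writer complex or are YTHDC2, and the 3 most correlated genes of METTL3, YTHDF2 and ALKBH5, of which those of YTHDF2 past the first are not reported here. Genes outside this rule (ZCCHC4, METTL16, METTL5, PCIF1, HNRNPA2B1, FMR1, TOX4 and the markers PAX2 and NEFM) complete a count or a check.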

Additional observations from a re-analysis of the deposited data

Results flagged for a closer look

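For 4 members the ratio of polysome to total RNA differed between the lines by the interaction test of the edgeR fit: VIRMA (log2 difference -1.67), FTO (-1.58), YTHDF3 (-1.13) and YTHDF2 (-0.63). For VIRMA and YTHDF3 the total RNA was called higher in the shPRRC2B line at the same time, while for YTHDF2 and FTO it was not called. For FTO, replicate 1 of the shCtrl polysomes had the level of the shPRRC2B libraries, and without that library the difference was -2.02.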

How the results depend on the processing

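VIRMA, YTHDF2, YTHDF3 and FTO kept their fall in TE in every omission of a library (counts of 4 to 5 lower members), under DESeq2, the other scalings, filters and both blocks. With the length trend removed together with the replicate block, 2 were called (YTHDF3 -0.73, adjusted p = 0.0519); FTO was also lost without the block. Polysome RNA had 2 higher members with that combined fit and with no size threshold (YTHDF1 joined), and 0 to 1 with a library left out. Against total RNA, the lower members in shCtrl polysomes came to 2 with the length trend removed, with and without the block, and the higher members in shPRRC2B polysomes were 1 to 2 with a library left out, YTHDC1 joining. The replicate block alone changed no call of a member (TE of FTO -1.52), and a pairing by number did not show in the data. The cause of these shifts was not tested.

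These changes turned sign, among them the called METTL14 and VIRMA ratios of polysome to total RNA. With the length trend removed (with the block in brackets), METTL14 came to 0.055 (0.055) in TE, 0.18 (0.18) in polysome RNA, 0.39 (0.39) against total in shCtrl and 0.45 (0.45) in shPRRC2B. VIRMA came to 0.014 (0.014) in shCtrl, and ALKBH5 to 0.11 (0.11) in TE, 0.23 (0.23) and 0.34 (0.34) against total. YTHDF2 total RNA came to -0.015 (-0.014), to -0.035 with total counts, -0.0068 with TMM within each fraction and -0.0022 with 1 fraction alone. TE of ALKBH5 was 0.048 with total counts, 0.056 with TMM within each fraction and 0.058 with at least 10 counts in every library. With each library left out, ALKBH5 ranged from -0.14 to 0.088 in TE, -0.0062 to 0.19 in total RNA, -0.090 to 0.10 in polysome RNA and -0.20 to 0.0098 against total in shCtrl, YTHDF2 from -0.0099 to 0.070 in total RNA, and METTL3 from -0.040 to 0.22 in polysome RNA. Low counts limit YTHDC1 (0 to 126 counts) and the polysome values of FTO (51 to 162 counts). Why YTHDC1 had so few counts was not tested.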
